A study of Ictidomys tridecemlineatus with 15 samples.

Results

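Gene expression in the supraoptic nucleus was compared between squirrels in torpor and squirrels in interbout arousal (IBA), the cold and the warm phase of the same hibernation season. The comparison used 10 of the 15 libraries of the series: 5 from hibernating thirteen-lined ground squirrels in torpor and 5 from hibernating animals in IBA. The remaining 5 libraries, from active animals outside hibernation, entered the shared estimate of the spread, and their levels are given last, beside the other values. All genes with a value of at least 1 normalised CPM (read counts divided by library size after the authors' scaling factor) in at least 5 of the 15 libraries were tested, which left 15501 of the 16993 genes in the deposited table. The labels give no strain, sex or age for the animals and no time of day, and nothing says how long an animal had been in torpor or in arousal.

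Thirteen-lined ground squirrels hibernate in bouts. In torpor, metabolism and neuronal firing fall, body temperature falls to near that of the surroundings, and transcription and translation are slowed throughout the body. Between bouts the animal rewarms itself for a short time, and during this arousal brain activity, blood flow and synthesis of RNA and protein return. The supraoptic nucleus is a hypothalamic nucleus whose large magnocellular neurons secrete the hormones of water balance and of milk ejection into the blood, and it senses the osmotic state of the body.

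The nuclei were cut by hand from coronal slices, which mixes neurons with glia and the cells of vessels in every library, and fewer cells of a type cannot be told apart from less RNA per cell. Whole reads recovered from the deposited values numbered 21570371 to 26113341 per library in torpor, 19320883 to 23621875 in IBA and 15844561 to 21216931 in the active state. Levels below are normalised CPM. They are not divided by transcript length and are compared only within a gene. A fold change is the difference of mean log2(CPM + 1), torpor minus IBA, with its standard error, and "called" means a limma p-value adjusted over all 15501 genes of less than 0.05. Because 1 was added before taking logs, changes of genes near or below 1 CPM are understated. These p-values measure the spread between libraries, and the sources used here do not say whether reads were counted by strand, so genes that overlap another gene on the opposite strand, or that have near-identical copies, are uncertain.

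Torpor and IBA differed at 455 of the 15501 genes (2.94%). Counts of called members in the gene lists below are to be read beside this share. In torpor 149 genes (0.961%) were higher and 306 (1.97%) were lower, and the median over all genes tested was 0.00. Most changes were modest: 15 of the higher genes and 38 of the lower genes passed 2-fold, with median sizes of 0.54 and 0.64 on the log2 scale. The higher genes had more reads behind them, with a median of 53.3 CPM over the libraries compared and 17.7 CPM for the lower genes, without regard to transcript length. The same called genes were then read in the active animals, which share no library with the contrast that chose them, but whose comparisons with torpor and with IBA share its libraries. Against the active state, the median of the higher genes was 0.54 in torpor and −0.01 in IBA, and that of the lower genes was −0.63 in torpor and 0.01 in IBA. Over all genes 19.5% were called between torpor and the active state and 1.3% between IBA and the active state. The typical gene called between torpor and IBA stood in IBA at about the level of active animals, and torpor was the state that lay apart. The 5 torpor libraries lay wholly above the 5 IBA libraries for 295 genes (1.9%) and wholly below them for 598 genes (3.86%), and 364 of these 893 genes were also called.

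**Figure D1:**
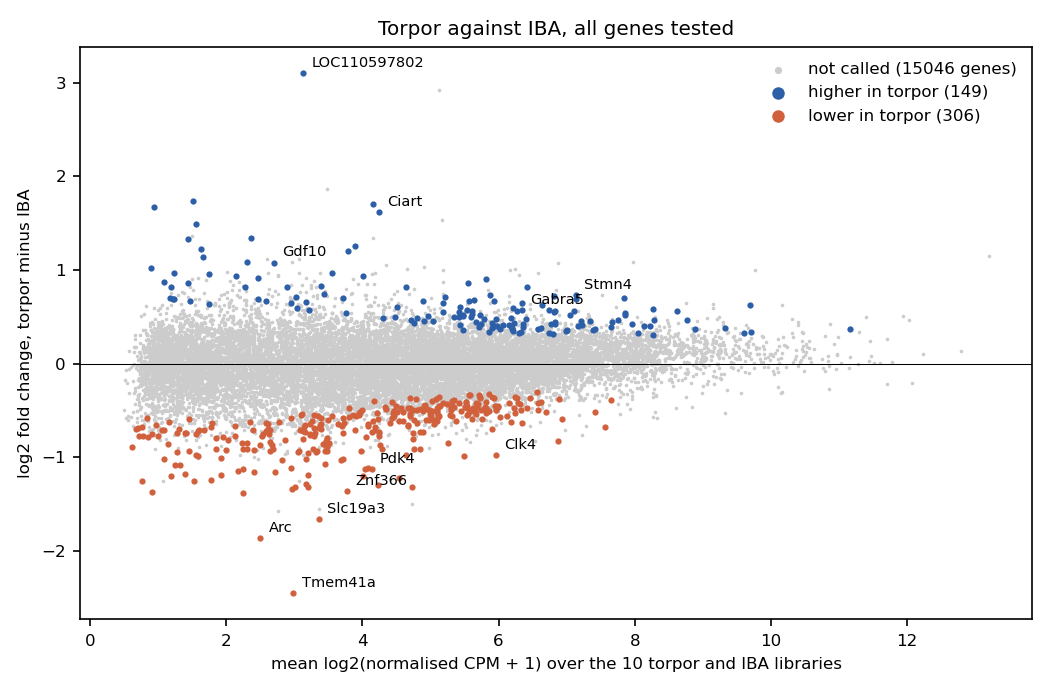
Log2 fold change of each gene (torpor minus IBA, vertical axis) against its mean log2(CPM + 1) over the 10 libraries (horizontal axis), one point per gene. Blue points are the 149 genes higher in torpor, orange points the 306 lower genes and grey points genes that were not called; LOC110597802 lies highest at 3.10 and Tmem41a lies lowest at −2.45.

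Scaling by library size alone, without the scaling factors of the deposited values, which ran from 0.936 to 0.990 in torpor libraries and from 0.999 to 1.04 in IBA libraries, gave 92 higher and 767 lower genes and put the median of all genes at −0.08. The share of called genes that were lower was 89.3% then, against 67.3% with the deposited scaling. Median-of-ratios scaling, another alternative, gave 155 higher and 294 lower genes, with 65.5% lower. The balance between rises and falls thus depended on whether libraries were scaled by size alone.

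Markers of supraoptic neurons were compared between the states, but they do not settle how far the signature of the nucleus was kept. Of 7 such genes none was called by limma or edgeR, and DESeq2 called 1. An unadjusted limma p of less than 0.05 was reached by 2, both lower in torpor. The largest fall was that of Pou3f2, a transcription factor, at −0.47. Of the 7 genes 4 lay above 0 and 3 below. Pdyn, the precursor of dynorphin, stood at 492 ± 191 CPM in torpor and 361 ± 130.2 CPM in IBA (SD, n = 5 each), and Otp, a transcription factor that specifies neurosecretory neurons, stood at 156 and 140.5 CPM. Of the 7, Nos1 and Gal averaged under 1 CPM in both states. The leading axis of variation among the 10 libraries (27.0% of the variance) did not separate the states: torpor libraries lay between −28.8 and 42.1 on it and IBA libraries between −11.6 and 16.04. Torpor libraries 4 and 5 lay at the low end and torpor library 2 at the high end. The second axis (22.9%) did separate them, with torpor libraries from 1.17 to 22.9 and IBA libraries from −25.2 to −6.61.

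Markers of myelinating oligodendrocytes differed more between the libraries within torpor and within IBA than between these 2 states. Against the active state their median log2 fold change was 0.99 in torpor and 0.56 in IBA. The summed level of 17 such markers ran from 4554 to 15014 CPM in torpor, from 3870 to 9831 CPM in IBA and from 3144 to 5603 CPM in active animals, and the 2 highest torpor values were those of torpor libraries 5 and 4. None of the 17 was called by limma or edgeR, while DESeq2 called 3 and 5 had an unadjusted limma p of less than 0.05; 16 lay above 0 with a median of 0.43. Mag, a myelin adhesion protein, stood at 131, 51.1, 73.4, 179 and 180 CPM in torpor libraries 1 to 5, against 54.4, 82.6, 78.4, 127 and 67.3 CPM in IBA libraries and 5.37 to 41.3 CPM in active animals. The torpor and IBA values overlapped and its log2 fold change was 0.47 ± 0.51 (adjusted p = 0.654). All 10 measured markers of oligodendrocyte precursors also lay above 0 and none was called. The part of these cells in the results below was not tested beyond 2 refits: without torpor libraries 4 and 5 the test called 465 genes, 238 of them among the 455, and with the mean oligodendrocyte marker level in the model it called 621, of which 296 were among the 455.

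Astrocyte, neuron and blood markers showed no gene called by limma, edgeR or DESeq2, with 1, 3 and 1 at an unadjusted limma p of less than 0.05. The astrocyte filament gene Gfap ranged from 981 to 2687 CPM in torpor, from 1104 to 4662 CPM in IBA and from 3481 to 8493 CPM in active animals, with a log2 fold change of −0.27 ± 0.42 between torpor and IBA. Of 13 microglia and macrophage markers 1 was called: C1qa, a chain of complement C1q, was at 2.45, 1.92, 4.99, 6.03 and 4.35 CPM in torpor libraries, against 1.17, 1.27, 1.29, 2.696 and 0.964 CPM in IBA libraries, so torpor libraries 1 and 2 lay below IBA library 4 (0.96 ± 0.24, adjusted p = 0.0375). The summed level of the 13 markers ran from 331 to 509 CPM in torpor and from 378 to 543 CPM in IBA. Leaving out torpor library 3, 4 or 5 or IBA library 1, 2, 3 or 5 ended the C1qa call, with adjusted p from 0.0675 to 0.0954.

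The most significant change of the comparison was a rise of LOC110597802, a locus without a symbol. Its transcript is annotated as a long non-coding RNA that lies between Coasy, which makes coenzyme A, and Hsd17b1, a steroid dehydrogenase, in the reference assembly mIctTri1.hap1. LOC110597802 was at 20.2, 29.1, 19.2, 37.3 and 21.5 CPM in torpor libraries, against 2.497, 1.27, 2.74, 1.81 and 1.84 CPM in IBA libraries and 2.1 to 2.88 CPM in active animals. Every torpor library exceeded every library of the other states by a wide margin, and the means of torpor and IBA stood in a ratio of 12.5. The log2 fold change was 3.10 ± 0.19 (limma adjusted p = 3.26e-08), and it remained called under each of the 23 alternative settings, where it ran from 2.09 to 3.65.

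Ciart, a repressor of the circadian clock, had the largest rise of the called genes with a symbol. It was at 34.7, 34.9, 20.7, 37.1 and 37.9 CPM in torpor libraries, against 8.82, 7.44, 11.2, 12.4 and 10.0 CPM in IBA libraries and 5.37 to 10.5 CPM in active animals. Torpor library 3 was the lowest of its state but still lay above every IBA library. The log2 fold change was 1.62 ± 0.19 (adjusted p = 1.91e-04).

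Several of the other large rises encode proteins of microtubules, chromatin and signalling between cells. Stmn4, a brain stathmin that destabilises microtubules, was at 149, 185, 153, 205 and 217 CPM in torpor libraries, against 103, 124, 87.0, 108 and 124 CPM in IBA libraries and 83.2 to 97.9 CPM in active animals, with no overlap between torpor and IBA (0.73 ± 0.12, adjusted p = 0.00313). Tpgs1, a subunit of the enzyme complex that adds glutamate chains to tubulin, averaged 63.0 ± 11.8 CPM in torpor and 33.9 ± 5.23 CPM in IBA (0.87 ± 0.14, adjusted p = 0.00252). Pcgf6, a ring finger protein of Polycomb complexes, averaged 6.31 ± 1.48 CPM in torpor and 2.43 ± 0.56 CPM in IBA (1.08 ± 0.18, adjusted p = 0.00398). Rps6kl1, a kinase-like protein related to ribosomal S6 kinases, was at 48.6 to 116 CPM in torpor libraries and at 33.6 to 46.2 CPM in IBA libraries (0.91 ± 0.18, adjusted p = 0.0138). Stmn4, Tpgs1, Rps6kl1 and CUNH19orf60, the last at 76.0 and 45.2 CPM, were called in each of the 23 alternatives, and Pcgf6 in the 22 that kept it.

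Of the 12 largest rises the remaining 6, Gdf10, Hes1, Nfe2l3, Cep76, Ring1 and Trib2, lost their call in some alternatives. Gdf10, a secreted ligand of the transforming growth factor beta family, was at 8.61, 12.8, 5.93, 7.61 and 8.57 CPM in torpor libraries, against 1.91, 4.28, 1.79, 5.76 and 5.19 CPM in IBA libraries and 0.966 to 2.05 CPM in active animals. Torpor library 3 barely cleared IBA library 4, and the call (1.08 ± 0.25, adjusted p = 0.0294) ended without torpor library 2 or 5 or IBA library 1, 2 or 3, with adjusted p up to 0.0903. Hes1, a Notch-induced repressor of transcription, averaged 5.66 and 2.67 CPM (0.82 ± 0.19, adjusted p = 0.0265), and this call ended without torpor library 3, 4 or 5 or IBA library 2, 3 or 5. Nfe2l3, a leucine zipper factor of the antioxidant response family, averaged 13.2 ± 2.23 and 6.91 ± 0.707 CPM in torpor and IBA (0.83 ± 0.20), and its call held only without torpor library 1 or 3. Cep76, a centrosomal protein (0.74 ± 0.16), lost its call without IBA library 2 alone (adjusted p = 0.0583). Ring1, a ubiquitin ligase of Polycomb complexes that pairs with proteins such as Pcgf6, averaged 9.70 and 5.39 CPM (0.71 ± 0.19, adjusted p = 0.0463) and kept its call only without torpor library 1.

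Slc19a3, a plasma membrane transporter of thiamine, showed the clearest fall. Its levels were 5.38, 4.22, 4.25, 4.76 and 5.29 CPM in torpor libraries, against 16.1, 16.6, 13.6, 20.8 and 19.97 CPM in IBA libraries and 10.0 to 14.0 CPM in active animals. The torpor values were tightly grouped and none came near the lowest IBA or active value (−1.66 ± 0.14, adjusted p = 4.40e-06). Its relative Slc19a2, the other thiamine transporter of this family, was at 9.91 CPM in torpor and 8.75 CPM in IBA and was not called (0.17 ± 0.16, adjusted p = 0.579).

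Tmem41a, a multipass membrane protein, fell most among the named genes. It was at 1.98, 2.36, 1.19, 8.38 and 1.17 CPM in torpor libraries, against 28.2, 15.2, 19.8, 11.1 and 17.1 CPM in IBA libraries and 6.10 to 19.0 CPM in active animals. Torpor library 4 stood well above the rest of its state, inside the range of active animals, though below every IBA library (−2.45 ± 0.37, adjusted p = 0.00301; −2.82 without torpor library 4).

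Other large falls fell into several classes of proteins. The zinc finger genes Znf366, Znf526 and Znf646 averaged 7.65, 4.11 and 5.12 CPM in torpor and 21.1, 11.6 and 13.1 CPM in IBA, with log2 fold changes of −1.36 ± 0.15, −1.34 ± 0.21 and −1.28 ± 0.26. Kcnj2, an inward rectifier potassium channel that holds cells near their resting potential, was at 9.26 CPM in torpor library 1 and at 2.67 to 3.89 CPM in the other 4, against 9.82 to 15.6 CPM in IBA libraries, so torpor library 1 lay close to the IBA range (−1.31 ± 0.22, adjusted p = 0.00466). Nabp1, a single-stranded DNA binding protein, averaged 11.0 ± 1.43 CPM in torpor and 29.7 ± 9.26 CPM in IBA (−1.30 ± 0.19). Lpar6, a receptor for lysophosphatidic acid, averaged 14.6 and 34.4 CPM (−1.22 ± 0.21), and Tlr3, an endosomal sensor of double-stranded RNA, 5.18 and 13.0 CPM (−1.18 ± 0.20). Siglecl1 fell by 1.38 on the log2 scale. These 8 genes were called in each of the 23 alternatives, whereas Robo4, a guidance receptor of vessel cells at 16.8 ± 6.37 CPM in torpor and 42.2 ± 10.5 CPM in IBA (−1.32 ± 0.33, adjusted p = 0.0448), kept its call only without torpor library 4 or IBA library 5.

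**Figure D2:**
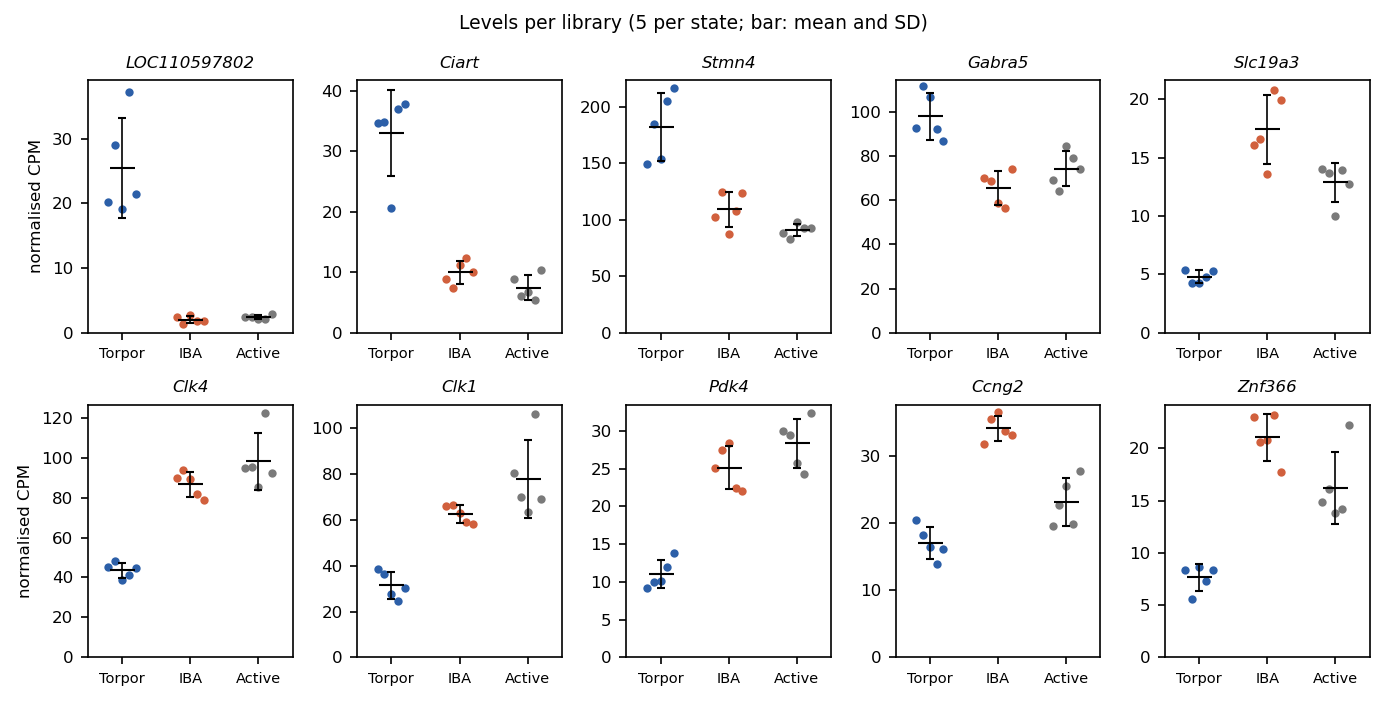
Normalised CPM (vertical axes, each starting at 0) of 10 genes in every library, with torpor, IBA and active animals from left to right. Points are libraries in order 1 to 5 and bars give mean and SD of 5 libraries; the torpor and IBA points do not overlap in any of the 10 panels, whereas for Ccng2 the active values lie near those of torpor and for most other genes near those of IBA.

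The clock genes were set side by side because animals in torpor are inactive around the clock and the phase of their oscillators is unknown here. Of 21 measured clock genes 2 were higher, 1 was lower and 18 were not called. Beside Ciart, Bhlhe40, another repressor of the clock loop, was at 70.6 to 95.5 CPM in torpor and 51.8 to 73.6 CPM in IBA. Torpor library 2 lay below IBA library 3, and the call (0.49 ± 0.11, adjusted p = 0.0221) ended without IBA library 2 or 5 and under scaling by library size. Nr1d2, a nuclear receptor that represses clock genes, was at 25.3, 25.5, 19.0, 21.4 and 25.6 CPM in torpor libraries, against 34.8, 31.9, 32.8, 34.4 and 30.4 CPM in IBA libraries and 28.2 to 39.1 CPM in active animals (−0.48 ± 0.11, adjusted p = 0.0266). Its call ended without torpor library 3 or 4 or IBA library 1, 2 or 3. Its paralogue Nr1d1 did not pass, at 85.6 to 149 CPM in torpor and 65.0 to 110.5 CPM in IBA (0.44 ± 0.16, adjusted p = 0.132).

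The core oscillator genes overlapped between torpor and IBA and were not called. Per1 was at 28.4, 12.8, 29.9, 53.6 and 57.6 CPM in torpor libraries, against 32.2, 26.7, 29.6, 36.8 and 17.4 CPM in IBA libraries, with wide overlap (0.21 ± 0.37). Per2 averaged 6.51 and 5.88 CPM, Cry1 27.0 and 24.9 CPM, and Arntl, the partner of Clock, 20.05 and 20.2 CPM. Dbp, an output factor of the clock, averaged 4.87 ± 1.89 CPM in torpor and 3.64 ± 0.657 CPM in IBA (adjusted p = 0.420). A difference in time of day of collection between the states was not tested.

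The splicing factor kinases Clk4 and Clk1 fell, while Rbm3 and Cirbp, RNA-binding proteins induced by cold, did not pass. These 2 kinases were the called genes of the 16 in this list. Clk4 was at 45.2, 48.2, 38.8, 41.1 and 44.9 CPM in torpor libraries, against 89.7, 93.6, 89.2, 81.6 and 78.8 CPM in IBA libraries and 85.4 to 122 CPM in active animals. Clk1 was at 38.8, 36.2, 27.5, 24.7 and 30.3 CPM in torpor, against 65.9, 66.5, 62.8, 59.0 and 58.3 CPM in IBA and 63.6 to 106 CPM in active animals. Both genes encode kinases that phosphorylate the SR proteins of splicing, and the catalytic activity of this family is known from mammalian cells to respond to small changes in temperature. The torpor and IBA values did not overlap for either gene, and the log2 fold changes were −0.97 ± 0.10 and −0.98 ± 0.14 (adjusted p = 4.15e-05 and 0.00113). Both were called in each alternative. None of 27 SR and hnRNP splicing factors was called by limma or edgeR, 1 was by DESeq2, and 6 had an unadjusted limma p of less than 0.05.

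Rbm3 and Cirbp, RNA-binding proteins induced by cold in mammalian cells, were high in both phases of hibernation. Rbm3 was at 74.2, 92.3, 53.1, 62.9 and 63.2 CPM in torpor libraries, against 53.2, 57.4, 59.4, 48.8 and 45.2 CPM in IBA libraries and 20.02 to 29.7 CPM in active animals. Torpor library 3 lay within the IBA range, and the difference did not pass (0.37 ± 0.14, adjusted p = 0.147). Cirbp was at 286, 315, 287, 355 and 357 CPM in torpor, against 250.4, 256, 232, 227 and 203 CPM in IBA and 128 to 199 CPM in active animals. For Cirbp the torpor and IBA values did not overlap, yet the adjusted p was 0.0528 (0.45 ± 0.12), and it was called in 6 of the 23 alternatives, with adjusted p from 0.0154.

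Immediate early genes, which neurons switch on within minutes of firing, were mostly lower in torpor but few passed. Of 22 measured genes 2 were lower and none higher, and 15 lay below 0 with a median of −0.25. An unadjusted limma p of less than 0.05 was reached by 7 lower and 2 higher genes, and the largest rise in the list was 0.96. Klf6, a zinc finger factor induced by growth factors and injury, was at 34.5 to 43.0 CPM in torpor and 46.8 to 64.9 CPM in IBA (−0.45 ± 0.10, adjusted p = 0.0216), and its call ended without torpor library 2 or IBA library 2 or 3. Arc, whose product acts at synapses after activity, was at 1.21, 1.52, 3.03, 3.63 and 1.22 CPM in torpor libraries, against 40.5, 5.56, 4.82, 10.9 and 6.75 CPM in IBA libraries and 1.69 to 8.55 CPM in active animals. IBA library 1 stood far above the others. The log2 fold change of Arc was −1.86 ± 0.48 (adjusted p = 0.0491); leaving out any 1 of the 10 libraries ended the call, and without IBA library 1 the value was −1.38 (adjusted p = 0.0530).

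The same library stood out for Fos and Egr1, transcription factors of this class. Fos was at 8.96, 13.5, 13.3, 14.1 and 30.2 CPM in torpor libraries, against 169, 35.8, 38.4, 28.1 and 23.5 CPM in IBA libraries and 33.9 to 122 CPM in active animals. Torpor library 5 reached into the IBA range, and the log2 fold change of −1.502 ± 0.50 did not pass (adjusted p = 0.115); without IBA library 1 it was −1.02. Egr1 was at 7.86 to 13.8 CPM in torpor, at 63.8 CPM in IBA library 1 and at 11.4 to 22.2 CPM in the other IBA libraries (−0.93 ± 0.43, adjusted p = 0.246). Nr4a1, a nuclear receptor induced by activity, averaged 3.93 ± 2.37 CPM in torpor and 6.08 ± 4.57 CPM in IBA, with overlapping values (adjusted p = 0.735).

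**Figure D3:**
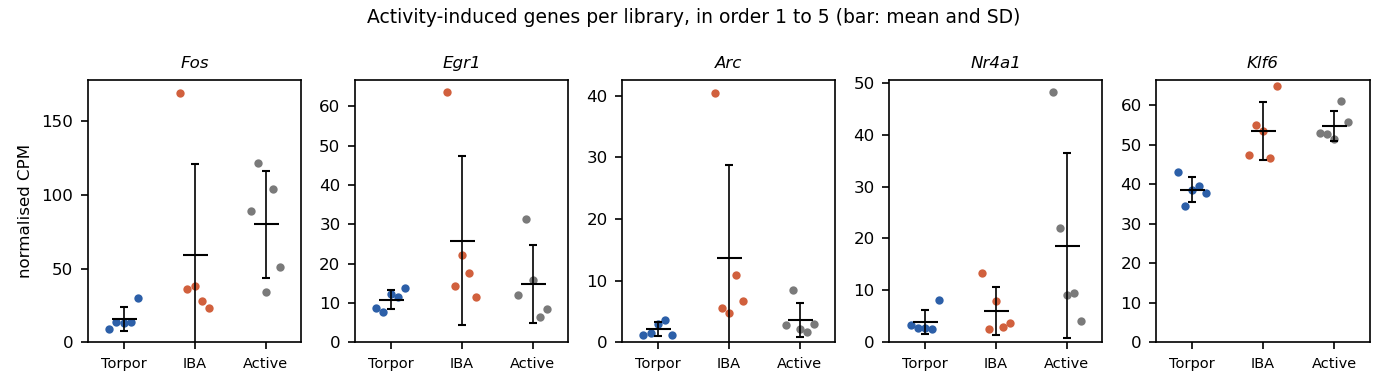
Normalised CPM (vertical axes, each starting at 0) of 5 activity-induced genes in every library, with torpor, IBA and active animals from left to right and libraries in order 1 to 5 within a state; bars give mean and SD. IBA library 1 is the high point of Fos (169), Egr1 (63.8) and Arc (40.5), while Klf6 shows no overlap between torpor and IBA.

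Feedback inhibitors of the kinase pathway upstream of these genes were lower in part. Of 16 measured genes 2 were called, both lower: Dusp6, a phosphatase of ERK kinases, at 12.7 ± 2.56 CPM in torpor and 20.4 ± 2.16 CPM in IBA (−0.66 ± 0.15, adjusted p = 0.0277), and Rgs2, which shortens signalling by G proteins, at 22.3 ± 4.48 and 37.9 ± 10.4 CPM (−0.72 ± 0.16, adjusted p = 0.0258). Neither overlapped between torpor and IBA. The Dusp6 call ended without torpor library 3, 4 or 5 or IBA library 1, 3 or 5, and the Rgs2 call without torpor library 2 or 4 or IBA library 1 or 3, with adjusted p up to 0.0852 and 0.0680.

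Transcripts of mitochondrial respiration lay slightly higher in torpor almost throughout. Of 72 nuclear-encoded subunits of oxidative phosphorylation 6 were higher, none was lower and 66 were not called. An unadjusted limma p of less than 0.05 was reached by 57 of them, all higher in torpor, and by 3012 of all 15501 genes. Of the 72, 71 lay above 0, and their median was 0.26 against 0.00 for all genes. With scaling by library size 70 lay above 0 with a median of 0.17, while 3 were called. Ndufa4, which sits in complex IV, was at 683, 808, 799, 653 and 711 CPM in torpor libraries, against 598, 555, 548, 583 and 519 CPM in IBA libraries and 575 to 679 CPM in active animals, a rise of 0.38 ± 0.08 (adjusted p = 0.0247). The complex I subunits Ndufa11 and Ndufb11 averaged 256 and 124 CPM in torpor and 184 and 99.2 CPM in IBA (0.47 ± 0.11 and 0.32 ± 0.08). LOC101959727, which the reference table names Uqcrfs1, the Rieske iron-sulphur subunit of complex III, averaged 282 ± 32.7 and 195 ± 37.4 CPM, with torpor library 1 at the level of the highest IBA libraries (0.54 ± 0.12, adjusted p = 0.0216). The other 2 higher members were loci named Cox7c and Cox8a there.

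The number of calls among these small shifts changed with each library left out. The count of called genes over all genes changed too and ran from 159 to 670 in these fits. The number of respiratory subunits called was 0 without torpor library 3 or IBA library 2 or 3, 1 without torpor library 2, 2 without torpor library 4 or IBA library 1 or 5, 5 without IBA library 4, 9 without torpor library 5 and 10 without torpor library 1, and it was 15 without torpor libraries 4 and 5 together. The number above 0 was 71 with any 1 library left out. In active animals Ndufb11 averaged 126 CPM, like torpor, whereas Ndufa11 averaged 158 CPM, below both.

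Cytosolic ribosomal proteins and proteasome subunits showed the same slight excess. Of 75 ribosomal protein genes 73 lay above 0 with a median of 0.24, and 2 were called (2.67%, near the 2.94% over all genes). An unadjusted limma p of less than 0.05 was reached by 43 of the 75, all higher in torpor. Over all 15501 genes 3012 reached it. Rps15 averaged 288 ± 25.9 CPM in torpor and 215 ± 32.4 CPM in IBA (0.43 ± 0.10, adjusted p = 0.0319) and Rpl28 90.1 ± 9.70 and 70.7 ± 6.07 CPM (0.34 ± 0.09, adjusted p = 0.0433). Both calls ended without torpor library 2, 3 or 4 or IBA library 2, 3 or 5, that of Rpl28 also without IBA library 1, and both ended with scaling by library size. With 1 library left out 0 to 3 ribosomal protein genes were called, 15 without torpor libraries 4 and 5 and 9 with oligodendrocyte marker level as a covariate. Of 33 proteasome subunits 31 lay above 0 with a median of 0.21 and none was called by limma or edgeR; 12 had an unadjusted limma p of less than 0.05, and DESeq2 called 4. With 1 library left out 0 to 4 subunits were called (4 without torpor library 5), with torpor libraries 4 and 5 left out 7, and with the oligodendrocyte covariate 8. Both ribosomal and respiratory genes are short and abundant, and whether RNA integrity differed between the states was not tested; the labels give one range for all samples. Of 41 translation factors 1 was called (2.44%, near the 2.94% over all genes). It was Eif4ebp2, a repressor of cap-dependent initiation, at 19.3 ± 2.30 CPM in torpor, 28.0 ± 3.81 CPM in IBA and 35.0 ± 2.29 CPM in active animals (−0.51 ± 0.11, adjusted p = 0.0229). The Eif4ebp2 call ended without torpor library 4 or IBA library 2 or 3.

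**Figure D4:**
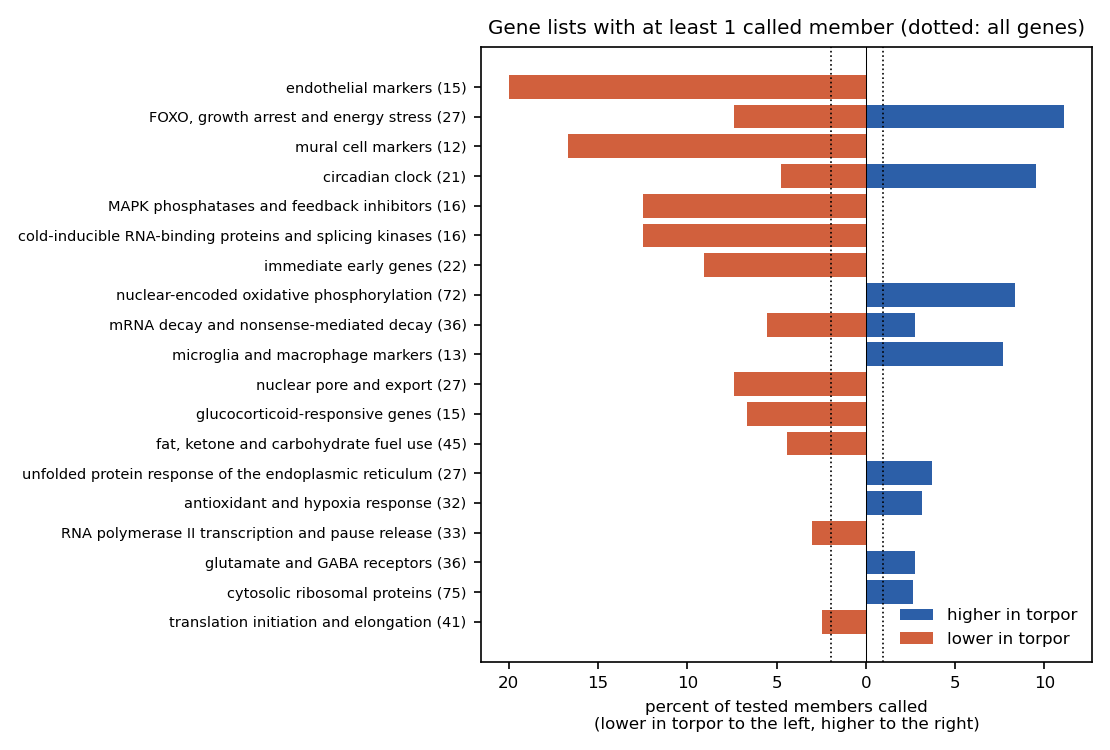
Percent of the tested members of each gene list that were called (horizontal axis), for lists with at least 1 called member and with the number tested in brackets. Bars to the right are members higher in torpor and bars to the left members lower in torpor; dotted lines mark the shares over all genes, 0.961% and 1.97%, and with 1 to 6 members called per direction the bars rest on few genes.

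Chaperones did not separate the cold from the warm phase. None of 28 heat shock genes was called by limma, edgeR, DESeq2 or limma-voom, and 1 had an unadjusted limma p of less than 0.05. Hspa8, the constitutive Hsp70, was at 3354, 4005, 3525, 2384 and 2607 CPM in torpor libraries, against 3499, 2342, 2879, 3182 and 3766 CPM in IBA libraries, with full overlap (0.01 ± 0.15), and Hsph1, a co-chaperone induced by heat, averaged 113 CPM in both states. In the unfolded protein response of the endoplasmic reticulum 1 of 27 genes was called (3.70%, against 2.94% over all genes). Manf, a secreted protein that the response induces, was at 95.6, 144, 156, 143 and 117 CPM in torpor, against 101, 74.3, 82.5, 80.6 and 96.0 CPM in IBA and 118 to 147 CPM in active animals. Here IBA, not torpor, lay apart from the active state, and torpor library 1 lay within the IBA range (0.58 ± 0.12, adjusted p = 0.0206); the call ended without torpor library 3 or IBA library 2 or 3. Hspa5, the main chaperone of that compartment, averaged 2136 ± 484 and 1967 ± 383 CPM (adjusted p = 0.747).

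Growth arrest and energy stress genes changed in both directions. Of 27 genes in this list 3 were higher and 2 lower. Ccng2, an unconventional cyclin that slows the cell cycle and is a target of FOXO factors, was at 20.4, 18.2, 16.4, 14.0 and 16.2 CPM in torpor libraries, against 31.8, 35.5, 36.5, 33.6 and 33.0 CPM in IBA libraries and 19.5 to 27.8 CPM in active animals. Torpor and IBA did not overlap, and the active mean lay between theirs, with active libraries 1 and 4 below torpor library 1 (−0.97 ± 0.12, adjusted p = 3.32e-04). The other lower gene, Cdkn1b, a cyclin-dependent kinase inhibitor, averaged 58.4 and 89.5 CPM (−0.62 ± 0.16, adjusted p = 0.0397). The higher genes were Gadd45a and Gadd45b, stress sensors of growth arrest, at 15.8 and 6.08 CPM in torpor and 9.41 and 3.384 CPM in IBA (0.70 ± 0.15 and 0.69 ± 0.17), and Trib2, a pseudokinase that promotes protein degradation, at 46.8 ± 7.23 and 28.3 ± 5.86 CPM (0.71 ± 0.18). The call of Gadd45a ended without torpor library 2 or 3 and that of Gadd45b without torpor library 4 or 5 or IBA library 2, 3 or 5. Trib2 kept its call only without torpor library 4 or IBA library 2. Bnip3, a mitophagy receptor induced by hypoxia, was at 449 to 624 CPM in torpor and 320.3 to 444 CPM in IBA (0.47 ± 0.11, adjusted p = 0.0259). It was the 1 called gene of 32 in the hypoxia and antioxidant list (3.13%, near the 2.94% over all genes). The Bnip3 call ended without torpor library 2 or 3 or IBA library 1, 2 or 3.

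Of 45 genes of fat, ketone and carbohydrate use 2 were called (4.44%, against 2.94% over all genes), Pdk4 and Pfkfb3, both lower. Pdk4, a kinase that shuts off pyruvate dehydrogenase and spares glucose, was at 9.22, 9.97, 10.1, 12.01 and 13.8 CPM in torpor libraries, against 25.1, 27.4, 28.4, 22.5 and 22.1 CPM in IBA libraries and 24.3 to 32.3 CPM in active animals. Its torpor values lay wholly below the others (−1.13 ± 0.13, adjusted p = 1.11e-04), in each alternative with a call. Pdk4 was also the 1 called gene of 15 in the list of glucocorticoid-responsive genes. Pfkfb3, which makes the activator of phosphofructokinase, was at 97.5 to 179.8 CPM in torpor and 201 to 307 CPM in IBA (−0.68 ± 0.17, adjusted p = 0.0450), and it kept its call only without torpor library 1 or 5 or IBA library 4.

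Smg1 and Upf2 of RNA surveillance and Nup58 and Nxf1 of export were lower. Smg1, the kinase that starts nonsense-mediated decay by phosphorylating Upf1, was at 64.9, 73.4, 62.6, 62.1 and 58.6 CPM in torpor libraries, against 103, 111, 98.3, 80.3 and 109 CPM in IBA libraries and 98.7 to 119 CPM in active animals (−0.63 ± 0.10, adjusted p = 0.00247). Its partner Upf2 averaged 46.6 ± 3.19 CPM in torpor and 65.2 ± 4.11 CPM in IBA (−0.48 ± 0.10, adjusted p = 0.0152). Neither gene overlapped between torpor and IBA, and both calls held in each alternative. Of the 36 genes in the mRNA decay list 33 were not called. The list also held Gadd45b, given above as a stress sensor of growth arrest, which was higher. Of 27 nuclear pore and export genes Nup58, a channel nucleoporin, was lower at 41.4 and 60.6 CPM (−0.54 ± 0.10), as was Nxf1, the main export receptor of mRNA, at 82.2 ± 4.58 and 110.2 ± 8.09 CPM (−0.42 ± 0.10, adjusted p = 0.0323). The Nup58 call held in each alternative, and the Nxf1 call only without torpor library 1 or IBA library 4 among the 10 libraries left out in turn. Of 33 genes of RNA polymerase II and its pause release 1 was called (3.03%), near the 2.94% over all genes. It was Med13 of the mediator kinase module, at 32.8 ± 5.34 and 45.5 ± 3.71 CPM (−0.47 ± 0.12, adjusted p = 0.0448). The Med13 call ended without any 1 of 7 libraries: torpor 3, 4 or 5 or IBA 1, 2, 3 or 5.

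Vessel markers were lower in part, and Flt1 was called in each alternative. Of 15 endothelial markers 3 were lower and none higher, with a median of −0.16. Flt1, a receptor of vascular endothelial growth factor, was at 29.2, 31.3, 24.8, 26.1 and 28.8 CPM in torpor libraries, against 39.0, 39.9, 38.7, 39.0 and 39.3 CPM in IBA libraries and 46.1 to 60.3 CPM in active animals. The IBA values were almost equal to each other and the 3 states did not overlap (−0.47 ± 0.09, adjusted p = 0.0141). Ocln, a tight junction protein, averaged 13.5 ± 1.495 CPM in torpor and 22.5 ± 4.78 CPM in IBA (−0.68 ± 0.17, adjusted p = 0.0433), and Tek, the angiopoietin receptor, 25.8 ± 4.34 and 36.4 ± 3.54 CPM (−0.49 ± 0.13, adjusted p = 0.0470). The defining junction and adhesion genes of this cell type, Cdh5, Cldn5 and Pecam1, were not called, at 15.4, 106 and 33.2 CPM in torpor and 20.5, 125 and 31.0 CPM in IBA. The summed level of the 15 markers ran from 951 to 1279 CPM in torpor and from 923 to 1166 CPM in IBA. Without 1 library, 1 to 3 of the 15 were called: Flt1 in each case, Ocln only without torpor library 1 or IBA library 4 or 5, and Tek only without torpor library 1.

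The mural cells that wrap small vessels gave a similar picture. Of 12 markers Kcnj8 and Abcc9 were lower, at 3.60 and 17.9 CPM in torpor and 6.65 and 25.5 CPM in IBA (−0.75 ± 0.19 and −0.51 ± 0.13, adjusted p = 0.0413 and 0.0491). Their products form together the potassium channel that closes when ATP is plentiful. Both genes overlapped between torpor and IBA, in torpor libraries 4 and 1. Leaving out torpor library 2, 3 or 5 or IBA library 1, 3, 4 or 5 ended both calls, and for Abcc9 torpor library 4 or IBA library 2 did so too. The summed level of the 12 markers ran from 225 to 475 CPM in torpor, lowest in torpor library 2, and from 386 to 605 CPM in IBA; the part of these cells in the result was not tested.

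Genes of the magnocellular neuron itself were not called. In the list of 23 genes of magnocellular identity and neuropeptides none passed, and 15 lay above 0 with a median of 0.18. Nearest to the threshold were Pou3f2, a transcription factor of these neurons, at 50.1 and 69.3 CPM (−0.47 ± 0.14, adjusted p = 0.0669), and Cartpt, the precursor of the CART peptides, at 71.9 and 22.2 CPM (1.53 ± 0.45, adjusted p = 0.0784). By unadjusted limma p of less than 0.05 the list held 5 genes, and DESeq2 called 2 of its genes. Genes of the osmotic response also gave no call among 23, with 4 at an unadjusted p of less than 0.05, 1 called by edgeR and 2 by DESeq2. Slc5a3, the transporter that takes up the osmolyte myo-inositol, was at 42.3, 39.8, 44.3, 37.6 and 46.7 CPM in torpor libraries, against 49.1, 64.1, 52.0, 55.6 and 55.2 CPM in IBA libraries and 71.7 to 93.0 CPM in active animals. Its 3 states did not overlap and stood in the order torpor, IBA, active; the step between torpor and IBA had an adjusted p of 0.0531 (−0.38 ± 0.10) and passed in 4 of the 23 alternatives.

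Neuropeptides of neighbouring hypothalamic nuclei were also without a call. Of 12 measured genes 6 had an unadjusted limma p of less than 0.05 and DESeq2 called 2; 11 lay above 0 with a median of 0.47. Their summed level ran from 449.6 to 1645 CPM in torpor, highest in torpor library 4, and from 206 to 511 CPM in IBA. Without torpor library 1, 2 of the 12 were called, and without torpor library 4 only 7 lay above 0. Pmch, the precursor of melanin-concentrating hormone, averaged 239 CPM in torpor and 30.5 CPM in IBA (2.92 ± 1.34, adjusted p = 0.254), and somatostatin, Sst, 398 and 181 CPM (1.09 ± 0.33, adjusted p = 0.0842). A difference in dissected area cannot be told apart here from a difference in RNA of these genes per cell, and neither was tested.

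The lists of receptors, channels and release machinery of neurons gave 1 call. Kcnj2 and Kcnj8, potassium channel genes given above as lower, were in none of these lists. Of 36 glutamate and GABA receptor genes only Gabra5 was called (2.78%, near the 2.94% over all genes). Gabra5, the subunit of GABA receptors that carry tonic inhibition outside synapses, was at 92.7, 112, 107, 92.3 and 86.7 CPM in torpor libraries, against 69.9, 68.9, 58.9, 56.4 and 74.3 CPM in IBA libraries and 64.1 to 84.7 CPM in active animals. Every torpor value exceeded every value of the other states (0.57 ± 0.10, adjusted p = 0.00738), and the call held in each alternative. None of 39 ion channel genes of neuronal excitability, none of 34 synaptic vesicle genes and none of 26 genes of peptide processing was called, while 2, 3 and 2 of them had an unadjusted p of less than 0.05 in limma. By edgeR none of these was called either, and by DESeq2 1, 2 and 0 were.

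Histone genes were examined after their values were seen, because several unnamed loci among the largest rises are histone genes in the reference table. Of 16 genes that this table names as histones, 5 were higher (31.3%, against 0.961% over all genes) and none was lower. All 16 lay above 0 with a median of 0.35. This count includes H2ac4 and H2bk1, which passed the filter on low values only with their torpor libraries. LOC101963257, named H3-3b there, encodes a replacement histone made outside S phase, and it was at 1005, 1115, 875, 1101 and 1031 CPM in torpor libraries, against 615, 751, 658, 650.4 and 638 CPM in IBA libraries and 636 to 889.8 CPM in active animals. Its torpor and IBA values did not overlap (0.63 ± 0.10, adjusted p = 0.00292). The linker histone gene LOC101973381, named H1-2, was at 15.1, 22.6, 39.6, 42.6 and 49.9 CPM in torpor, against 12.2, 3.39, 4.82, 15.9 and 15.4 CPM in IBA and 1.39 to 3.76 CPM in active animals. Torpor library 1 overlapped the IBA range, and the call (1.70 ± 0.40, adjusted p = 0.0324) ended without torpor library 3, 4 or 5 or IBA library 1, 2 or 3.

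The other 3, like H1-2, belong to the replication-dependent histones, whose transcripts normally lack a poly(A) tail and are made in dividing cells. LOC101972152, named H1-4, averaged 7.38 ± 1.94 CPM in torpor, 2.35 ± 1.06 CPM in IBA and 0.942 ± 0.311 CPM in active animals (1.35 ± 0.21, adjusted p = 0.00255). LOC101974512, named H2ac4, averaged 3.95 ± 0.645, 0.792 ± 0.429 and 0.451 ± 0.392 CPM (1.49 ± 0.20, adjusted p = 0.00102). H2ac4 passed the filter on low values only with its torpor libraries, so it could hardly have entered as lower in torpor. LOC101975225, named H2bk1 and not called, also needed torpor libraries to pass. It was at 0.732 to 2.13 CPM in torpor, 0.279 to 1.04 CPM in IBA and at most 0.994 CPM in active animals. The place of both genes above 0 is thus partly set by the filter. LOC101967872, named H2ac20, averaged 9.36 and 4.68 CPM and kept its call only without torpor library 1. Of 17 protein-coding loci without a name that lie near histone genes in that table, 5 were higher (29.4%, against 0.961% over all genes) and none lower. One of them, LOC101968149, next to H2ac20, was at 1.97 to 2.90 CPM in torpor and at 0 to 0.330 CPM in IBA libraries (1.67 ± 0.15, adjusted p = 5.48e-06), with 2 IBA libraries at 0 reads. The table gives it no histone name. It reached at most 0.188 CPM in active animals, so it passed the filter of 1 CPM only through torpor. LOC101972712, another of the 5, also needed its torpor libraries to pass. Such loci could enter the test only with high torpor values, so these counts are partly set by the filter. Near-identical copies within histone families can share reads, so which copy rose is uncertain.

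**Figure D5:**
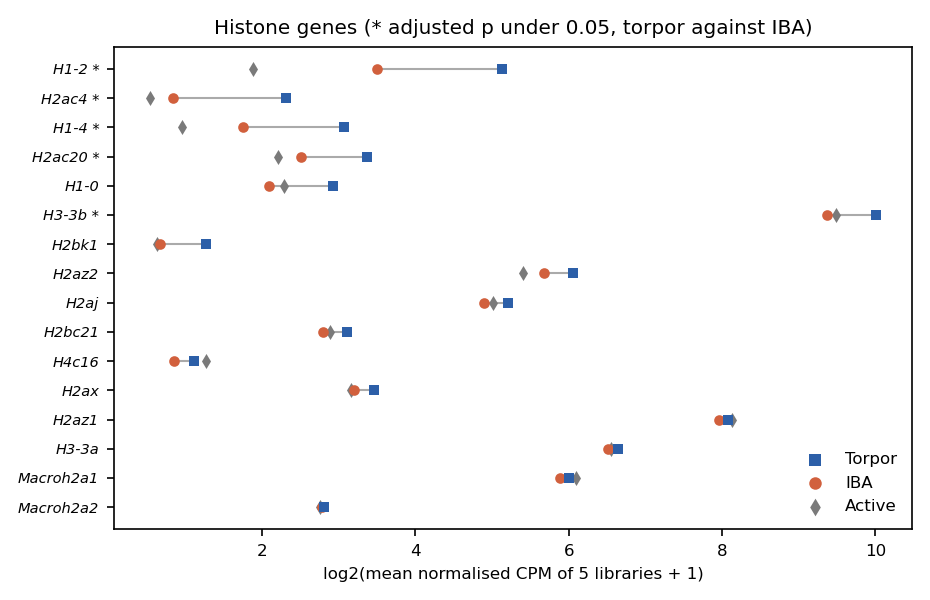
Level of the 16 named histone genes as log2(mean CPM + 1) on the horizontal axis, one line per gene, with torpor (blue squares), IBA (orange circles) and active animals (grey diamonds), each a mean of 5 libraries; asterisks mark genes called between torpor and IBA. The torpor mean lies to the right of the IBA mean in each of the 16 lines. H2ac4 and H2bk1 passed the filter on low values only with their torpor libraries.

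Among the remaining calls chosen after their values were seen, LOC101959835, a long non-coding RNA locus beside Slc3a2, was at 28.3 to 38.8 CPM in torpor, 16.3 to 19.4 CPM in IBA and 16.8 to 23.0 CPM in active animals (0.82 ± 0.11, adjusted p = 9.12e-04). Banp, which binds DNA at promoters and in the nuclear matrix, was at 7.71 to 13.9 CPM in torpor, 18.7 to 29.5 CPM in IBA and 35.1 to 51.6 CPM in active animals, so that the 3 states formed separate steps (−1.11 ± 0.16, adjusted p = 0.00118). Btbd7, a BTB domain protein, averaged 8.01 ± 0.758 CPM in torpor and 17.3 ± 0.919 CPM in IBA (−1.03 ± 0.12, adjusted p = 1.11e-04), and its active mean of 18.4 CPM was close to that of IBA. The 2 regulatory subunits that direct phosphatase 1 to the stress-phosphorylated initiation factor eIF2 moved apart: Ppp1r15a, the inducible one, averaged 45.0 ± 7.61 and 28.1 ± 3.04 CPM in torpor and IBA (0.65 ± 0.13, adjusted p = 0.0169), and Ppp1r15b, the constitutive one, 33.3 ± 5.31 and 45.6 ± 2.92 CPM (−0.45 ± 0.11, adjusted p = 0.0322). The Ppp1r15a call held in each alternative, whereas that of Ppp1r15b held only without torpor library 1 or IBA library 4 or 5 among the libraries left out in turn.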

How the data were processed

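RNA from hand-dissected supraoptic nuclei of 15 squirrels was sequenced, 5 libraries each from torpor, IBA and active animals. The deposited values are a signal, CPM after scaling by the authors' normalisation factors, per the file headers. The deposited table also holds the authors' log2 fold changes, an F score and p-values, none of which is used here. Reads went through Trimmomatic 0.39, STAR 2.7.7a and Subread 2.0.1, and values through edgeR 3.38.4 under R 4.2.1, per the submitters' processing notes. Genome build, annotation and strand setting: not given in the sources used here. Some hormone and mitochondrially encoded genes were not analysed here.

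Values were taken as log2(value + 1) for genes with at least 1 in at least 5 libraries and fitted with limma 3.58.1 in R 4.3.3 (trended, robust empirical Bayes), all 15 libraries together and without covariates. P-values were adjusted by the Benjamini-Hochberg method at 0.05. Torpor and IBA were compared by a contrast, and the fit was tested on simulated data. Whole reads were recovered from the deposited values: 100% of the values were whole within 0.1 read. The edgeR 4.0.16 quasi-likelihood test on those reads called 479 genes. DESeq2 1.42.0, limma-voom, other pseudocounts, filters and scalings, a replicate block and leaving out libraries were the alternatives.

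Genes named are the 12 largest rises and 12 largest falls among called genes that have a symbol, average 2 or more on the log2 scale and do not overlap between torpor and IBA, up to 4 called members per gene list, the smallest p in each direction, and genes fixed by name. Further genes, the histones among them, were picked with their values in view, as stated where they appear. The members and lists were chosen with earlier results of these data known. Of 13852 symbols 94.1% were found in the reference table of assembly mIctTri1.hap1, which was used only for names and neighbours; 3117 loci had no symbol, and 24 names had been turned into dates. Precision is set by 5 libraries per state; no libraries were duplicates of each other.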

Additional observations from a re-analysis of the deposited data

Results flagged for a closer look

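Of 180 groups of 5 libraries examined over the named genes, 17 (9.44%) held a library whose gap to its nearest neighbour exceeded the 95% limit of Dixon's test. For independent groups of normally distributed values that limit is passed in about 1 in 20. The groups here share libraries and CPM values were used without logs, so 9.44% cannot be set against that rate. No explanation was tested for any of the 17 groups.

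IBA library 1 was the high one for 3 activity-induced genes: Fos at 169 CPM against 23.5 to 38.4 CPM in the other IBA libraries, Egr1 at 63.8 CPM against 11.4 to 22.2 CPM, and Arc at 40.5 CPM against 4.82 to 10.9 CPM. In torpor, library 5 was the high one for Fos, at 30.2 CPM against 8.96 to 14.1 CPM, and for Nr4a1, at 8.15 CPM against 2.67 to 3.32 CPM.

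Torpor library 4 was high for Tmem41a, at 8.38 CPM against 1.17 to 2.36 CPM, and low for Tlr3, at 3.17 CPM against 5.34 to 6.14 CPM. Torpor library 1 was high for Kcnj2, at 9.26 CPM against 2.67 to 3.89 CPM, and for Abcc9, at 25.0 CPM against 14.6 to 17.1 CPM. Torpor library 2 was high for Nabp1, at 13.5 CPM against 10.1 to 11.1 CPM, and for Rpl28, at 107 CPM against 82.2 to 88.7 CPM. Torpor library 3 was low for Ciart, at 20.7 CPM against 34.7 to 37.9 CPM, and for Nfe2l3, at 9.33 CPM against 13.4 to 15.03 CPM.

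Among IBA libraries, library 4 was low for Gadd45a, at 6.37 CPM against 9.73 to 10.5 CPM, and high for C1qa, at 2.696 CPM against 0.964 to 1.29 CPM. IBA library 3 was high for Kcnj2, at 15.6 CPM against 9.82 to 11.4 CPM, and IBA library 2 for LOC101968149, at 0.330 CPM against 0 to 0.0459 CPM.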

How the results depend on the processing

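The number of genes called depended on the setting, while none of the 75 called named genes changed direction in the 23 alternatives, or the 22 that kept the gene. These 75 had passed the test on the same libraries, so reversals were unlikely from the outset. The 455 genes (149 higher, 306 lower) became 262 (63 and 199) with only the 10 torpor and IBA libraries fitted, 232 of them shared; 859 (92 and 767) with library-size scaling, 398 shared; 1033 (431 and 602) with DESeq2, 454 shared; and 700 (287 and 413) with limma-voom, 437 shared. With oligodendrocyte marker level as a covariate 260 were higher. Leaving out 1 library gave 159 to 670 genes, 45 to 323 higher and 114 to 347 lower; the count was lowest without IBA library 3 and highest without torpor library 1. It moved by over 1.5 times without torpor library 2 (246), 3 (204) or 4 (276) or IBA library 1 (238), 2 (190), 3 (159) or 5 (268). All 10 of these fits called 131 genes (33 higher, 98 lower), and 93 (20 and 73) were called under each alternative. Of the 75, 34 were called in all 23, 5 in the 22 that kept them, and 36 lost their call in some; of 15 not called, 3 passed in some. Of these 15, 6 changed sign in some: Hsph1 to −0.0213 with library-size scaling, −0.00723 with edgeR and −0.00302 with DESeq2; Hspa8 to −0.0797 and Per2 to −0.00268 with library-size scaling; Per1 and Per2 to −0.308 and −0.225 without torpor libraries 4 and 5; and Mag, Per1 and Per2 to −0.178, −0.231 and −0.202 with the covariate. With 1 library left out, Hsph1 ran between −0.113 and 0.274, Hspa8 −0.0885 and 0.108, Per1 −2.65e-04 and 0.522, Per2 −0.0980 and 0.281 and Gfap −0.484 and 0.0350; none of the 6 was called in any alternative.

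The replicate numbers did not pair the libraries: same-numbered torpor and IBA libraries correlated in their deviations at −0.116, −0.0888, −0.123, 0.203 and −0.248. With the replicate block 155 genes were called (44 higher, 111 lower), 152 of them shared. Genes near 1 CPM rest on few reads, and 5 libraries per state limit small changes. The causes of these dependences were not tested.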

Other observations

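Several gene families were looked at after their values were seen, so their counts describe these libraries and support nothing further; over all genes 0.961% were higher and 1.97% lower. Zinc finger genes named Znf or Zfp, mostly repressors of transcription, numbered 276, of which 15 were lower and 2 higher, with 197 below 0; 8 to 18 were lower with 1 library left out and 35 with library-size scaling. Of 39 Zbtb genes, a related class of DNA-binding repressors, 4 were lower: Zbtb14, Zbtb34, Zbtb41 and Zbtb49. With 1 library left out 0 to 5 were lower, and 10 with library-size scaling. Among 88 genes of DNA repair 9 were lower and 2 higher (4 to 8 lower with 1 library left out, 14 with library-size scaling). Lig4, the ligase that seals double-strand breaks in end joining, was at 5.06 to 10.9 CPM in torpor libraries, against 15.2 to 20.3 CPM in IBA libraries and 15.8 to 19.4 CPM in active animals (−1.02 ± 0.17, limma adjusted p = 0.00317). Rfwd3, a ubiquitin ligase of replication forks, averaged 13.4 ± 2.04 CPM in torpor and 26.02 ± 3.40 CPM in IBA (−0.91 ± 0.12). Of 69 writers and erasers of histone marks 8 were lower, among them the acetyltransferases Crebbp and Ep300, and 2 were higher, Ring1 and Pcgf6; with 1 library left out 1 to 7 were lower, and 13 with library-size scaling.

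Genes of RNA sensing and interferon signalling gave 7 lower and no higher among 26 (3 to 7 lower with 1 library left out). Ifih1, a cytosolic sensor of double-stranded RNA, averaged 13.8 ± 1.21 CPM in torpor, 23.7 ± 3.81 CPM in IBA and 15.03 ± 3.54 CPM in active animals, so IBA was the state that stood apart. Stat2, which carries the interferon signal to the nucleus, averaged 32.7 and 50.8 CPM, and 52.1 CPM in active animals (−0.61 ± 0.10, adjusted p = 0.00466). In iron handling 4 of 20 genes were lower (2 to 4 with 1 library left out), among them Slc40a1, the iron exporter, at 26.1 to 29.8 CPM in torpor and 45.3 to 60.8 CPM in IBA (−0.84 ± 0.17), and Ireb2, an iron-sensing RNA-binding protein, at 34.9 to 45.6 CPM and 55.1 to 63.6 CPM (−0.52 ± 0.09). Of 25 selenoproteins and genes of their synthesis 4 were higher and 1 lower, Pstk, the kinase that prepares the selenocysteine transfer RNA, at 3.74 ± 0.272 and 7.76 ± 1.495 CPM (−0.87 ± 0.16); with 1 library left out, 0 to 4 were higher. Stmn3, a relative of Stmn4, averaged 293 ± 29.6 and 180.3 ± 16.1 CPM (0.70 ± 0.10), while Stmn1 and Stmn2 were not called. The actin-binding proteins Cfl1 and Pfn1 averaged 481 and 380.0 CPM in torpor and 324 and 252 CPM in IBA, with torpor library 1 inside the IBA range for both.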
